A study of Camponotus floridanus with 48 samples.

Results

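The transcripts described here were those whose level rose most regularly with the body length of carpenter ant larvae. They were chosen from the deposited normalized counts by Spearman's rank correlation with length over all 48 larvae. A transcript was eligible if its name marked a RefSeq messenger RNA, if it was longer than 600 and shorter than 15000 bases, and if its median normalized count lay between 200 and 20000. Of 26314 transcripts in the table, 10389 were eligible, and the 150 with the highest correlation formed the set. These 150 came from 144 genes, and 6 of the genes contributed 2 transcripts each. Because the correlation with length chose the set, every relation of its members with length below is a description and carries no test of that relation.

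The larvae were females of Camponotus floridanus, the Florida carpenter ant, taken whole at the terminal larval stage from colony 30, and each animal gave 1 library of polyadenylated RNA. They formed 1 group with no treatment, ordered by measured lengths from 4648.07 to 7598.06 µm, and the study asked what accompanies differences in worker size. The labels gave neither the age of a larva nor the size of the adult it would have become, so length, age and progress through the terminal stage cannot be told apart. All animals shared 1 colony, so differences between colonies were not sampled.

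Carpenter ant workers of 1 colony differ widely in body size. Ants are holometabolous insects, so all growth takes place in the larva, and the adult cuticle hardens at a size that larval growth has already set. The terminal larva is the last stage before the pupa, in which the larva feeds, fills its fat body and then prepares for metamorphosis. The gene table used here paired transcripts with locus numbers and no product names. None of the 150 members therefore carries a name or role below, 0 of the 21 gene lists drawn up for growth, hormones, cuticle, storage proteins and tissue markers could be matched, and the tissue was not checked against markers. In whole bodies, a change in the number of cells of a type and a change in RNA per cell cannot be told apart.

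The libraries held 6608777 to 63171583 estimated reads. Libraries No. 42 and No. 43, from 2 of the 8 longest larvae, were shallow with 8928640 and 6608777, and the others held 29813779 or more. The first principal component was taken from counts summed per gene, after a filter on low counts, as log2 values scaled to library size. It took 44.0% of the variance. On this component 15 libraries had scores above 20 and stood apart from the other 33, here called the common libraries. The 15 were not spread evenly over length. Of the 14 larvae from 5850.88 to 6892.55 µm, 12 were among them, against 2 of the 19 larvae up to 5502.35 µm. Window values below are over all larvae unless stated, and the correlation, size, position and fits are also given without the 15 libraries. The split was made from the data and is no group of the study.

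The 150 transcripts were level in the short larvae, were higher in larvae of middle length and stayed high in the longest. For description the larvae were placed in 6 windows of 8 in order of length, numbered 1 for the shortest to 6 for the longest. Relative to window 1, the median over the 150 transcripts of the log2 difference in window medians was -0.04 in window 2, 0.16 in window 3, 0.75 in window 4, 0.74 in window 5 and 0.76 in window 6. The same medians over all eligible transcripts stayed between -0.05 and 0.02. Transcript by transcript, the step from one window to the next had medians of -0.04, 0.18, 0.56, -0.09 and 0.03 on the log2 scale. The level was higher than in the window before for 60, 137, 136, 59 and 81 of the 150 at these 5 steps.

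**Figure D1:**
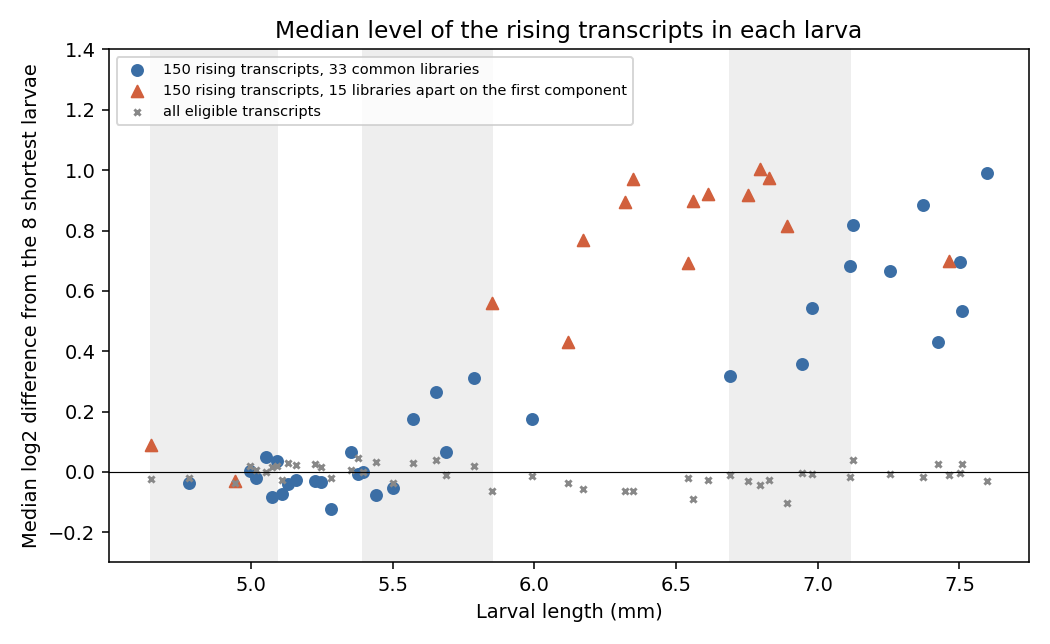
Each larva's median log2 difference from the 8 shortest larvae over the 150 rising transcripts (vertical axis) against its length in mm (horizontal axis), with circles for the 33 common libraries, triangles for the 15 that stood apart, crosses for the median over all 10389 eligible transcripts, and shading on alternate windows. The 19 larvae up to 5502.35 µm lie between -0.12 and 0.09, and the 6 larvae from 6171.21 to 6613.40 µm between 0.69 and 0.97.

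Seen larva by larva, the 19 animals up to 5502.35 µm held the 150 transcripts at median differences of -0.12 to 0.09. In the 7 larvae from 5571.91 to 6120.74 µm the values ran from 0.07 to 0.56, and in the 6 from 6171.21 to 6613.40 µm from 0.69 to 0.97. The 16 longest larvae, from 6689.42 µm, ranged from 0.32 to 1.00. The short larvae did not overlap with any larva of 6171.21 µm or more, whereas the middle and the long larvae overlapped broadly. In the short larvae 0.667% to 23.3% of the 150 transcripts were above their own median over all larvae, against 48.0% to 98.7% in the 22 larvae of 6171.21 µm or more.

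Over all larvae, the window medians of most of the set did not rise at every step. Windows 3, 4, 5 and 6 held 1, 7, 4 and 1 of the 15 libraries, so window medians cannot separate length from that split. In the common libraries alone, the median over the 150 rose from group to group of length. It stood at 0.225, 0.53 and 0.82 log2 above the shortest group. In 9 of the 150 the window median was higher at every one of the 5 steps, beside 0.27% of all eligible transcripts. In 41 it was higher at 4 steps, in 66 at 3, in 32 at 2 and in 2 at 1. The median was highest in window 4 for 71 transcripts, in window 5 for 21 and in window 6 for 58, so that 92 of the 150 were lower in the 8 longest larvae than at their peak. Over the 10389 eligible transcripts the highest median lay in window 4 for 3327, in window 5 for 703 and in window 6 for 2083. Window 4 was thus the most frequent peak there too. The 9 that were higher at each step were transcripts of LOC105254411, LOC105251665, LOC105258651, LOC105253356, LOC105251213, LOC105251810, LOC105255183, LOC105256980 and LOC105247866. For LOC105254411 (XM_011263077.3) the window medians were 440.2, 499.8, 524, 615, 644 and 707 normalized counts, in order of length. For LOC105256980 (XM_025408935.1) they were 2488, 2674, 3190.2, 3368, 4469 and 5615.

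**Figure D2:**
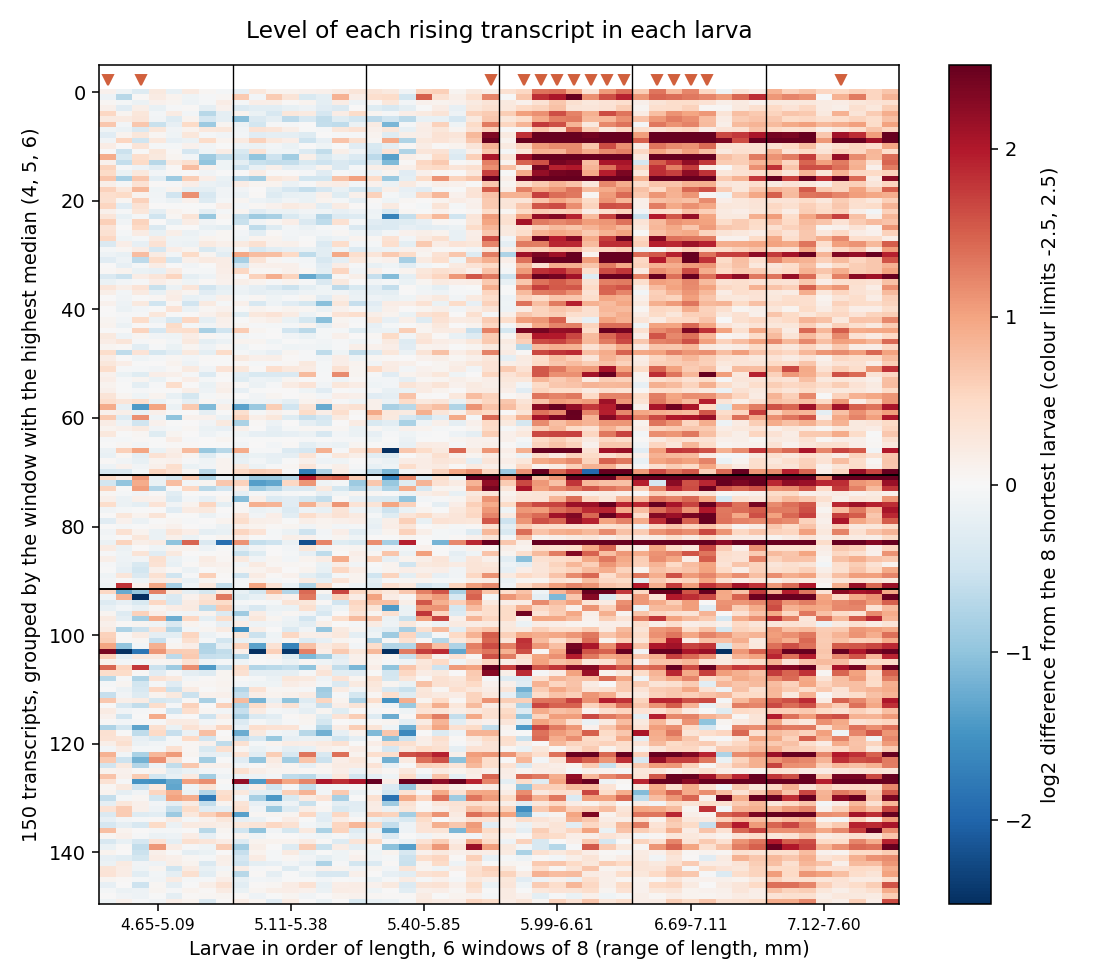
Log2 difference from the 8 shortest larvae (colour) for the 150 transcripts in rows and the 48 larvae in columns in order of length; vertical lines separate the 6 windows, horizontal lines separate transcripts with their highest median in window 4 (71), window 5 (21) and window 6 (58), and triangles above mark the 15 libraries that stood apart. The upper rows are darkest under the triangles of windows 4 and 5, and the lower rows are darkest in window 6.

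The 71 transcripts with their peak in window 4 stood at a median of 2.14 times their starting level there and 1.47 times in the longest larvae. Those 58 with their peak in the longest larvae reached a median of 1.92 times the starting level. Median transcript length was 1648 bases in the first of these groups, 1973 in the 21 with a peak in window 5 and 2310.0 in the last group. A trend with transcript length was also seen between libraries. Over all eligible transcripts, the log2 level per doubling of transcript length had a slope of -0.46 to -0.01 in the 15 libraries and of -0.29 to 0.23 in the common ones. The lowest of the common ones were the shallow libraries No. 43 at -0.29 and No. 42 at -0.21, and the next was No. 18 at -0.11. The part of this trend in the peaks of window 4 was not tested.

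The most regular transcript was XM_011269779.3 of LOC105258509, with a Spearman correlation of 0.801. Its normalized counts had a lowest value of 220.2, a median of 402 and a highest value of 653 in the 8 shortest larvae. In window 4 these were 448, 956 and 1836, and in the 8 longest larvae 656, 1732 and 2997. The shortest and longest windows did not overlap, with the lowest of the long larvae just above the highest of the short ones. The ratio of medians was 4.30, and the fitted slope was 0.97 ± 0.10 log2 per mm (SE, n = 48). The correlation was 0.752 in the common libraries and 0.721 in the 15.

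XM_025413731.1 of LOC105256829 ranked 3 with a correlation of 0.756 and a much larger range. It stood at 47.1, 82.4 and 175 normalized counts (lowest, median, highest) in the shortest window. It stood at 138, 419 and 5258 in window 4 and at 188, 1699 and 3127 in the longest. The end windows did not overlap, but within window 4 the values spread over more than the whole difference between the ends. In the common libraries its median went from 70.8 in larvae under 5600 µm to 1546 in those over 6900 µm. The ratio of the end medians was 20.4 and the slope 2.08 ± 0.29 log2 per mm (SE, n = 48).

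LOC112637522 and LOC105248781, neighbours in the gene table, held the members of rank 4 and rank 7. XM_025407427.1 of LOC112637522 stood at 489.8, 594 and 724 normalized counts in the shortest window, 689, 3881 and 5298 in window 4, and 947, 2790.4 and 4079.6 in the longest. It was highest in window 4, 6.52 times the start, and did not overlap between the end windows. Of window 4, 7 libraries stood apart, and the common one, No. 19, was at 689. In window 5 its median was 4351 in the libraries that stood apart and 1942 in the common ones. XM_025407417.1 of LOC105248781 went from 36.0, 136 and 376 to 187, 1320.3 and 2201, a ratio of medians of 9.62, with 1 larva of the longest window inside the range of the shortest. The other member transcript of LOC105248781, XM_025407423.1, went from a median of 538 to 1129.9, a ratio of 2.10.

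The widest excursion belonged to XM_011260465.3 of LOC105252852. It stood at 222, 313 and 455 normalized counts in the shortest window and reached 333, 61922 and 120132 in window 4, 197 times the starting median. In the longest window it was back at 668, 2901 and 17846. The 333 of window 4 belonged to larva No. 19, its only common library, and all 12 of the 15 libraries between 5850.88 and 6892.55 µm stood at 7162 or more. In the common libraries the median went from 369 in larvae under 5600 µm to 2212 in those over 6900 µm, and the correlation with length in these libraries was 0.706.

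A dip in window 4 was seen in XM_025410808.1 of LOC105256021, which had the largest ratio between the end windows, 26.3. It stood at 17.7, 52.4 and 119 normalized counts in the shortest window, 58.6, 304 and 588 in window 3, 42.5, 62.5 and 761 in window 4, and 207, 1405 and 3393 in the longest. The median of window 4 was thus back near the starting level and below those of windows 2 and 3. Of the libraries in window 4, 7 stood apart. In the longest window the shallow libraries No. 43 and No. 42 were at 3393 and 1714, beside 2019 in No. 41 and 1800 in No. 40. The rest of that window ran from 207 to 1097, so the size of the ratio depends in part on the shallow libraries. Its correlation with length was 0.695 over all larvae, 0.773 in the common libraries and 0.614 in the 15. Both transcripts of LOC105252675 also had a lower median in window 4 than in window 3. XM_011260180.3 had window medians of 977, 997, 1529, 1143, 2583 and 4988, and XM_011260182.3 of 451, 496, 668, 642, 1336 and 2111.

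**Figure D3:**
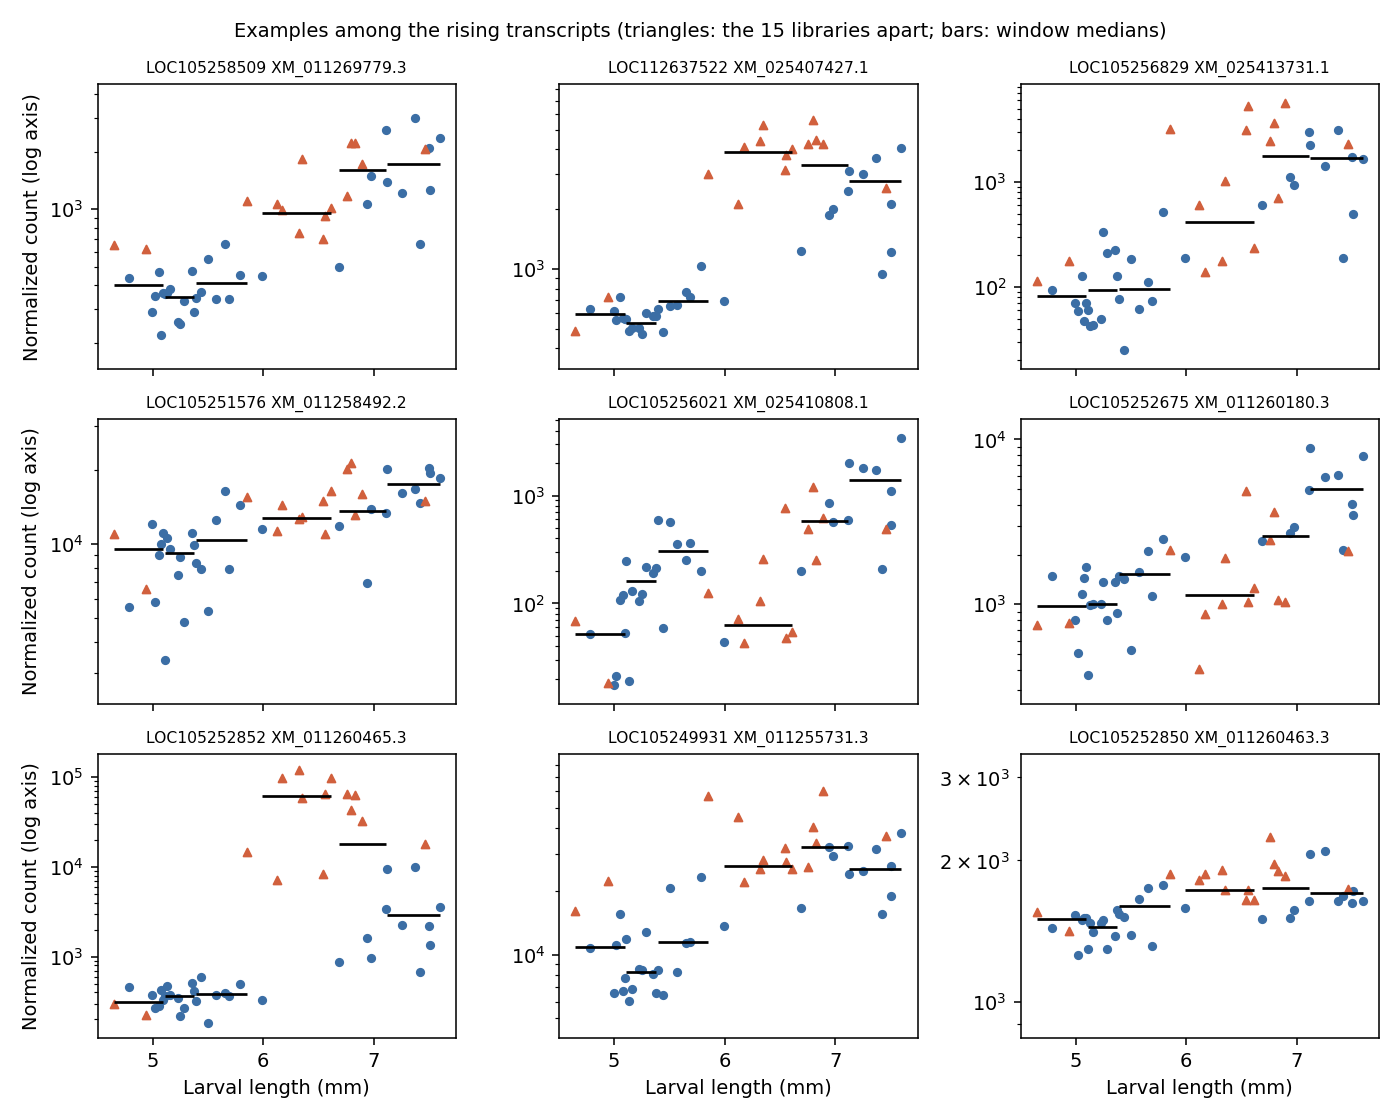
Normalized count (log axis) against larval length in mm for 9 of the rising transcripts, each point 1 larva; triangles mark the 15 libraries that stood apart and bars the medians of the 6 windows. LOC105252852 peaks in window 4 at 61922, LOC105256021 is at 62.5 there, and LOC105251576 and LOC105252675 are highest in the longest larvae.

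At the other end of the scale were small and tight differences. XM_011260463.3 of LOC105252850 had the smallest ratio, 1.14. Its normalized counts were 1256, 1499 and 1555 in the shortest window and 1623, 1703 and 2090.5 in the longest, so the windows did not overlap. Its slope was 0.11 ± 0.03 log2 per mm (SE, n = 48). XM_011255076.3 of LOC105249536 had a ratio of 1.14 too, but its windows overlapped, and 2 of the 8 longest larvae lay above all of the 8 shortest. LOC105257589, LOC105257675 and LOC105256733 had ratios of 1.14, 1.17 and 1.19.

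The highest median level was that of XM_011255731.3 of LOC105249931, 19889 normalized counts over all larvae. Normalized counts are not per length, so levels are not compared between transcripts. This transcript stood at 6593, 10941 and 22476 in the shortest window, at 16686, 32589 and 59712 in window 5 and at 15552, 25578 and 37687 in the longest. The end windows overlapped, with 6 of the 8 longest larvae above all of the shortest, and the slope was 0.69 ± 0.12 log2 per mm (SE, n = 48). Its median in the common libraries went from 8396 under 5600 µm to 27879.6 over 6900 µm. XM_011258492.2 of LOC105251576, also among the 5 with the highest median levels, went from 5557, 9510.4 and 12043 to 14656, 17552 and 20251 with no overlap, and in the common libraries from 8938 to 16385 between the same lengths. The other 3 of these 5, of LOC105256725, LOC105249228 and LOC105248091, were highest in window 4 or window 5 and had end ratios of 1.99, 1.52 and 1.29.

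Over all 150 the ratio of the longest to the shortest window had a median of 1.70, quartiles of 1.37 and 2.34, and a range of 1.14 to 26.3. On the log2 scale the median without the 15 libraries was 0.71, but its end windows held fewer larvae. The shallow libraries No. 42 and No. 43 had more weight in that longest window. With the windows of 8 larvae the median was 0.76. All 150 had the higher median in the longest window, beside 51.2% of eligible transcripts. The ratio was over 2 in 50, beside 3.7% of eligible transcripts, over 4 in 14 and under 1.5 in 58. In 44 transcripts every one of the 8 longest larvae lay above every one of the 8 shortest, beside 0.664% of eligible transcripts, and in 106 the 2 windows overlapped. These shares belong to the contrast that chose the set, and nothing is read from their excess.

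**Figure D4:**
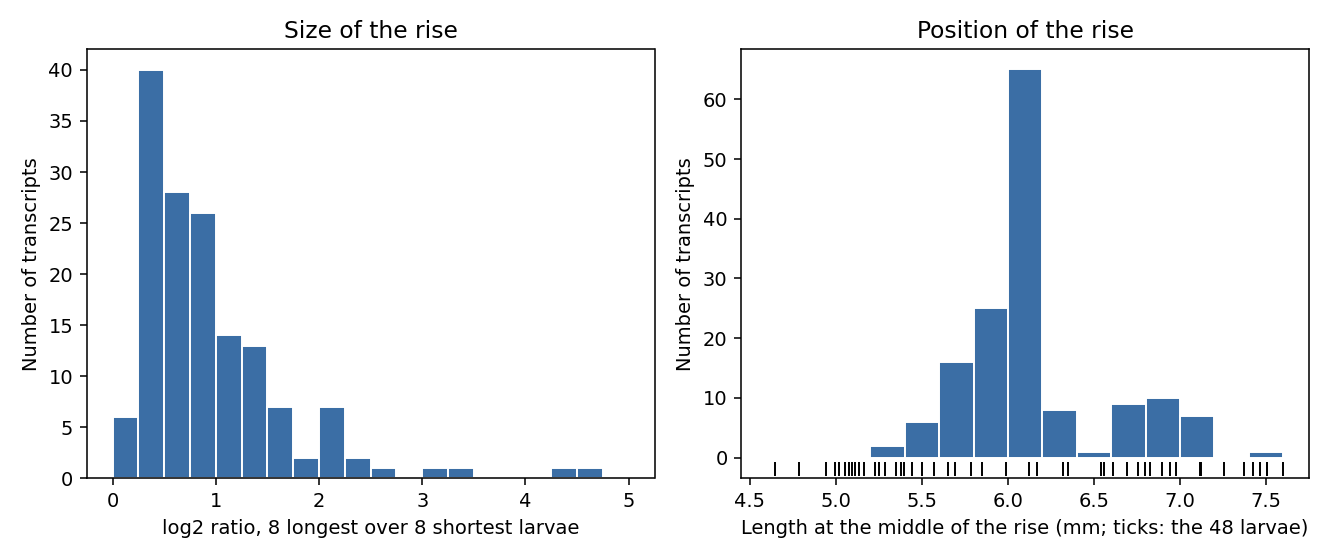
Left, number of rising transcripts by log2 ratio of the 8 longest over the 8 shortest larvae; right, number by the length in mm at which a monotone fit passes the middle of its rise, with ticks for the 48 larvae. Sizes have a median of 0.76 with a tail to the right, and positions pile up around a median of 6171.21 µm with a smaller group of 28 above 6348.66 µm.

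The position of the rise was read from a monotone (isotonic) fit to each transcript's log2 values. The fit passed 25% of its rise at a median length of 5690.32 µm, the middle at 6171.21 µm and 75% at 6542.04 µm. The middle lay from 5502.35 to 6348.66 µm in 120 of the 150, above that in 28 and below it in 2. A single step between 2 levels accounted for a median fraction of 0.521 of the variance of a transcript's log2 values, against 0.396 for a straight line, and gave the better fit in 134. The best step fell between 6120.74 and 6171.21 µm in 39 transcripts, between 5787.72 and 5850.88 µm in 27, between 5991.09 and 6120.74 µm in 25 and between 5690.32 and 5787.72 µm in 20. A step has a free position that a line lacks, so the comparison favours it by construction. Without the 15 libraries the median middle of the rise was 6943.37 µm. The median fractions were then 0.558 for a step and 0.543 for a line, and a step gave the better fit in 100 of the 150.

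The 2 earliest members were XM_011264311.3 of LOC105255183 and XM_011260182.3 of LOC105252675, each with its middle at 5248.58 µm. The first stood at 112, 273 and 643 normalized counts in the shortest window and at 341, 859.9 and 1290.3 in the longest, with overlap. The second included a larva listed at 0 in the shortest window, which spread to 1127, and it also overlapped the longest window of 634, 2111 and 5164. The larva at 0 was No. 9, at 4942.55 µm, one of the 15. The best single step of this transcript fell right after that larva, before 4997.25 µm. The latest was XM_011261336.3 of LOC105253356, with its middle at 7598.06 µm, the longest larva. Its window medians were 846, 853, 958, 1074, 1148 and 1443, and the highest single value, 2633, lay in the longest window. XM_025411502.1 of LOC105250285, XM_011252711.3 of LOC105248107 and XM_025410426.1 of LOC105254607 followed at 7122.86 µm. These late positions lay at shorter lengths when the 2 shallow libraries were left out. For LOC105253356 the highest values were those of No. 43 and, at 1946, No. 42, and without these larvae its middle was at 5571.91 µm. Those of the other 3 were then at 6171.21, 6171.21 and 6689.42 µm. High values were not confined to the shallow libraries. For LOC105250285, No. 41 and No. 40 stood at 5480 and 5483, beside 4947 in No. 42 and 6313 in No. 43. The early positions moved as well, to 6320.12 µm for LOC105255183 without the shallow libraries and to 7114.60 µm for XM_011260182.3 without the 15.

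The libraries that stood apart were the highest in the range of the early step. Within the common libraries alone, and relative to 17 larvae of 4783.45 to 5502.35 µm, the median over the 150 transcripts was 0.22 log2 in 5 larvae of 5571.91 to 5991.09 µm, 0.53 in 4 of 6689.42 to 7114.60 µm and 0.82 in 7 of 7122.86 to 7598.06 µm. On the same base the libraries that stood apart were at 0.04 in 2 larvae of 4648.07 to 4942.55 µm, 0.55 in 2 of 5850.88 to 6120.74 µm, 0.90 in 6 of 6171.21 to 6613.40 µm and 0.99 in 4 of 6754.55 to 6892.55 µm. The single long larva among them, at 7462.34 µm, was at 0.71. In the common libraries the level thus went up from group to group, while in the 15 it stood near its full height from 6171.21 µm on. No common library lay between 5991.09 and 6689.42 µm, so in that range length and library state cannot be told apart.

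The correlation with length held a median of 0.678 over the 33 common libraries, with a range of 0.442 to 0.837, and of 0.421 over the 15, with a range of -0.0786 to 0.786 and 148 positive. The 2 that were negative in the 15 belonged to LOC105251557 and LOC105251314. Without the 15, the highest correlation was that of LOC105254607, a transcript with an end ratio of 1.23. Its normalized counts in the longest window, 1188, 1316 and 1637, all lay above those of the shortest, 921, 1072 and 1129. Choosing the 150 anew without the 15 libraries would have kept 79 of them, and choosing them on TPM, a unit scaled to transcript length and library total, would have kept 91.

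Window 5 gave the closest comparison of both kinds of library, with 4 that stood apart at 6754.55 to 6892.55 µm and 4 common ones at 6689.42 to 7114.60 µm. Of the 150 transcripts, 125 had the higher median in the 4 that stood apart and 25 the lower, with a median difference of 0.40 log2, against -0.04 over all eligible transcripts. In 58 transcripts, 38.7%, the groups of 4 did not overlap and the libraries that stood apart were higher, beside 13.7% of eligible transcripts. In 3 they were wholly lower, 2% beside 14.8%. LOC105252852 was at a median of 52830.4 against 1288 normalized counts, and LOC105251810 at 1181 against 327. The 3 that were wholly lower were LOC105250361, at 1680.1 against 3259, and the gene table neighbours LOC105259494, at 414 against 521, and LOC105259493, at 2418 against 3172. The split was made from a component of the same libraries, and the members were chosen on these same values. No test is given, and nothing is read from the differences to eligible transcripts.

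Inside narrow ranges of length the agreement of level with length was weak. In pairs of larvae up to 100 µm apart, the longer larva had the higher value in a mean of 50.9% of the 150 transcripts over 70 pairs, and in 52.3% over 115 pairs that were 100 to 250 µm apart. The share was 56.2% over 169 pairs at 250 to 500 µm, 64.3% over 244 pairs at 500 to 1000 µm and 89.1% over 530 pairs at more than 1000 µm. Over all eligible transcripts it lay between 48.4% and 50.2% in the same bands. Pairs of common libraries gave 50.7%, 53.8%, 59.5%, 72.0% and 92.5%. Pairs share larvae and transcripts share libraries, so these are descriptions.

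**Figure D5:**
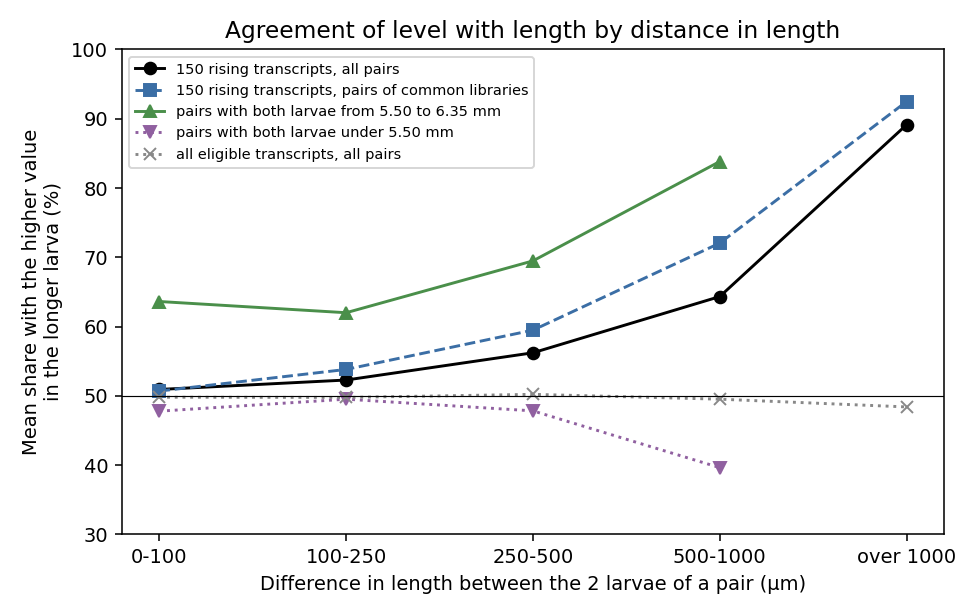
Mean share of transcripts with the higher value in the longer larva of a pair, in percent, against the difference in length in µm, for all pairs, pairs of common libraries, pairs inside 5502.35 to 6348.66 µm, pairs under 5500 µm, and all eligible transcripts. The share for all pairs goes from 50.9% to 89.1%, while pairs inside 5502.35 to 6348.66 µm are at 62.0% or more at every distance.

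The share was higher in the range where most transcripts had the middle of their rise, which restates how that range was found. It held 6 common libraries, at 5502.35 to 5991.09 µm, and 5 that stood apart, at 5850.88 to 6348.66 µm. With both larvae from 5502.35 to 6348.66 µm, the longer had the higher value in 63.6% of transcripts over 7 pairs up to 100 µm apart, 62.0% over 15 pairs at 100 to 250 µm and 83.8% over 15 pairs at 500 to 1000 µm. With both under 5500 µm the shares at these 3 distances were 47.8%, 49.5% and 39.6%, and with both over 6348.66 µm they were 52.1%, 49.9% and 47.1%. Within the windows of 8 larvae, the median Spearman correlation with length was -0.04, 0.14, 0.55, 0.43, -0.10 and 0.06 from the shortest to the longest window. Over the common libraries alone it was -0.03, 0.14, 0.45, 0.60 and 0.05 in windows 1, 2, 3, 5 and 6. In window 5 this covered 4 larvae, and window 4 held too few common libraries for a value. Over all 8 larvae of a window the correlation was positive for 65, 93, 138, 134, 55 and 81 of the 150. The shares over eligible transcripts were 53.7%, 52.3%, 45.7%, 49.1%, 49.4% and 44.4% in the same order.

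Neighbours in length could differ greatly in the level of the whole set. From larva No. 46 at 6689.42 µm to No. 53 at 6754.55 µm, 82.7% of the transcripts were higher, with a median difference of 0.57 log2, and No. 53 was one of the 15. From No. 33 at 6613.40 µm, another of the 15, to No. 46 the median difference was -0.53. Between common libraries, No. 42 at 7371.47 µm and No. 76 at 7422.84 µm differed by -0.47, with 10% of the transcripts higher in the longer larva, and No. 42 had one of the 2 shallow libraries. From No. 79 at 7508.29 µm to No. 43 at 7598.06 µm, the other shallow library, the difference was 0.42.

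In the count model, edgeR's quasi-likelihood test with Benjamini-Hochberg adjustment called all 150 rising with length at an adjusted p under 0.05, beside 7.16% of the 19714 transcripts tested. Since the rule chose these transcripts for that contrast, nothing is read from the difference. Their slopes had a median of 0.41 log2 per mm and a range of 0.08 to 3.56, against a median of -0.005 over all transcripts. Without the 15 libraries all but 1 were called, beside 7.4%, with a median slope of 0.34. The exception was XM_011255388.3 of LOC105249715, with a slope of 0.07 and an adjusted p of 0.114 by edgeR. In the 15 libraries alone the median slope was 0.37, but 0 were called, beside 0.00508% of the 19670 transcripts tested. With the 15 as a covariate all 150 were called, beside 7.3%, and the median slope was 0.33.

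A departure from a straight line was called by edgeR in 82 of the 150, beside 29.8% of all transcripts tested. Of these 82, 59 had their highest median in window 4, 16 in window 5 and 7 in window 6. The curves were lost whenever the 15 libraries were set aside. Without them 0 members and 0 of all transcripts were called, with 7 members and 339 transcripts at an unadjusted p under 0.05. With the 15 as a covariate 0 were called again, with 21 members and 555 of 20344 transcripts at an unadjusted p under 0.05. Within the 15 alone 0 were called, with 31 members and 1104 of 19670 transcripts at an unadjusted p under 0.05. When the spline was replaced by a quadratic term, 7 of the 150 were called, beside 0.457% of all transcripts.

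Members were also compared with each other after length was taken out. After a smooth curve in length was removed from each transcript's log2 values, the median Pearson correlation between members over the 48 larvae was 0.24, and 79.1% of member pairs were positive. Over all eligible transcripts the median was 0.005. In the 33 common libraries the values were 0.20 and 0.007. All members were chosen for one direction over the same larvae, while the eligible transcripts include both directions, so the medians are not on an equal footing. The points share their libraries, and no test was made.

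Genes with several annotated transcripts showed how far the rise belonged to the gene. The 144 genes had 99 further transcripts that were tested, in 57 of the genes, and 28 of these rose with length while 4 fell by edgeR's adjusted p, beside 7.16% rising and 6.48% falling of all transcripts tested. Their Spearman correlation with length had a median of 0.26, was positive in 75 and ranged from -0.73 to 0.75. Reads of transcripts of 1 gene are divided between them by the quantification, so their values are not independent and a division may be uncertain. With counts summed per gene, the chosen transcripts included, 141 of the 144 genes were called rising, beside 16.8% of 10513 genes.

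Isoform usage, the share of a gene's reads that each transcript took, changed with length in 7 of the 62 member genes that could be tested (edgeR's gene-level test, adjusted p under 0.05), beside 1.54% of 4348 genes. Members were chosen as single transcripts that rise over the same larvae, which favours genes whose transcripts differ in course. An increase in their share is therefore a description, and nothing is read from the difference to all genes. On simulated counts both the gene-level test and the Simes combination made more calls on unchanged genes than their threshold allows, so single calls are uncertain. In LOC105256214 the member XM_011265947.3 took 39.3% ± 5.02 (SD, n = 8) of the gene's estimated counts in the shortest window and 63.0% ± 6.30 in the longest, and its 2 other tested transcripts fell. In LOC105250489 the share of XM_011256626.3 went from 64.3% ± 15.2 to 89.7% ± 7.38, and in LOC105251314 that of XM_011258011.3 from 37.1% ± 6.04 to 57.3% ± 10.5. The shares in LOC105256725, LOC105252118 and LOC105255299 went from 40.2% to 60.7%, from 41.7% to 53.8% and from 17.2% to 25.8%. The remaining gene, LOC105248781, had both of its transcripts in the set. By a Simes combination of transcript-level tests, 3 genes were called, LOC105250489, LOC105252118 and LOC105255299.

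The members shared few features that the rule did not use. Their transcripts had a median length of 1971 bases against 2378 over all eligible transcripts, and 56.9% of their genes had a single transcript in the files against 51.4% of eligible genes. All were annotated as protein coding, as were all eligible transcripts. In the gene table, 5 pairs of member genes stood next to each other and 13 pairs lay within 5 rows, with no run longer than 2. No matching count for other gene sets of this size is given here, so nothing is read from these counts. The adjacent pairs were LOC105248781 and LOC112637522, LOC112637475 and LOC112637473, LOC105250703 and LOC105250701, LOC105259494 and LOC105259493, and LOC105252163 and LOC109610060. Pairs could be alike in size, as LOC112637475 and LOC112637473 were with end ratios of 2.91 and 2.76. They could also be unlike, as LOC105252852 and LOC105252850 were with 9.23 and 1.14 at 2 rows apart. Overlapping or near-identical neighbours can exchange reads in the quantification, and this was not checked.

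In the 6 genes with 2 members, the end ratios of the 2 transcripts were close in some and apart in others. Both transcripts were chosen to rise over the same larvae, and reads of 1 gene are divided between them, so likeness is a description. The end ratios were 3.49 and 2.97 in LOC105248810, 2.61 and 2.46 in LOC105251012, 1.63 and 1.43 in LOC105251878, 1.77 and 2.51 in LOC105252122, 5.10 and 4.67 in LOC105252675, and 9.62 and 2.10 in LOC105248781. In the last gene, whose usage test was called, the ratios differed most.

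The limit of the set fell in a dense part of the ranking. The last 3 members, of LOC105249715, LOC105258836 and LOC105254115, had correlations of 0.603, 0.603 and 0.602 and end ratios of 1.20, 1.34 and 1.48. The first 3 outside, of LOC105250562, LOC105249769 and LOC105248193, had 0.602, 0.602 and 0.602 with ratios of 2.16, 1.64 and 1.23. The median over the 150 was 0.652, the highest 0.801, and 39 were above 0.7, against a median of -0.02 over all eligible transcripts.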

How the data were processed

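Per the labels' protocols, whole-body polyA RNA went into directional libraries. Tools listed in the submitters' processing notes were Trim Galore 0.6.7, bcl2fastq 2.20, DESeq, DESeq2 and Salmon, without roles. The genome build and Salmon's version were not given in the sources used here. Per the submitters' files, the deposited table of the series holds a normalized signal per transcript, called normalized counts here, in which 1 missing cell was read as 0. The deposited quantifications hold estimated counts and TPM, per the file headers.

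Windows, monotone fits, steps and pairs used the normalized counts, on log2(value + 1) where a log was taken. Estimated counts were rounded, filtered with filterByExpr, scaled by TMM factors and tested in edgeR 4.0.16 (R 4.3.3) with length in mm over all 48 larvae. The SE of a slope is the slope over the square root of F. Curves used the 2 extra terms of a spline of 3 degrees of freedom, and isoform usage used diffSpliceDGE. One entry that names no gene, at most 0.00124% of a library, was left out. Gene symbols came from RefSeq's Cflo_v7.5 annotation, which matched 25811 transcripts by accession.

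The members, lists, tests and alternatives were chosen with earlier results of these data known. Named were the members with the highest correlation, largest and smallest ratio, highest level, earliest and latest middle, those at the limit, those sharing a gene and the first 5 in isoform usage. The 9 members higher at every step, the 3 wholly lower in window 5, LOC105251810, the adjacent gene pairs and the members with extreme correlations in either kind of library were named after their values were seen. The step fits, the split of window 5 and the fits with only the 15 libraries or with these as a covariate were added after seeing the data. Each larva is a separate animal. The slope, curve, step, monotone and isoform fits were tested on simulated data.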

Additional observations from a re-analysis of the deposited data

How the results depend on the processing

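The median size of the rise, 0.76 log2 (0.70 to 0.76 leaving out 1 larva at a time), was 0.61 in TPM, 0.64 without larvae 42 and 43 and 0.85 over the top 100 members. The median middle of the rise, 6171.21 µm (5850.88 to 6171.21 leaving out 1 larva at a time), was 6689.42 µm in TPM and 6943.37 µm without the 15 libraries that stand apart, where the monotone fit had no larvae between 5991.09 and 6689.42 µm. Co-variation, 0.24, was 0.29 in TPM and 0.28 with a line removed in place of a curve. Ranking anew kept 91 of the 150 in TPM, 79 without the 15 libraries, 130 in TMM-scaled CPM, 119 by Pearson correlation and 132 without the 2 shallow libraries. In the 15 libraries alone 0 members were called rising. The 82 curved members became 0 without the 15, 0 in the 15 alone, 0 with the 15 as a covariate and 7 when a quadratic term replaced the spline, and the 7 genes with changed isoform usage became 3 by Simes and 10 without the 15. The cause of these differences was not tested. The share of members higher in the longer larva of pairs up to 250 µm apart, 51.8%, stayed between 50.9% and 52.6% under the alternatives run. Among the slopes and ratios of the 47 named members none changed direction, and every slope missed the threshold in the 15 libraries alone, as did that of LOC105249715 without them and that of LOC105249536 with log2 total count as a covariate. No paired analysis was possible because the larvae form 1 group and share no replicate numbers. The normalized counts carry no depth, and a low level is less certain in the 2 shallow libraries.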

Other observations

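The limits on level and length left out a further 70 transcripts whose correlation with length was at least that of the last member. Of these, 43 had a median level that was too low and 9 one that was too high, 3 were too short, 4 were too long and 15 did not carry the name of a messenger RNA, with some failing more than 1 limit. On the other side of the ranking, 306 of the 10389 eligible transcripts had a correlation at least as strong in the falling direction, down to -0.847. The counts by edgeR's adjusted p over all larvae lay the other way, with 1412 transcripts rising and 1277 falling among 19714 tested. This balance depended on the 15 libraries. Without them 1454 rose and 1722 fell, with them as a covariate 1486 rose and 1612 fell, and in them alone 1 rose and 36 fell. The other fits run had more rising than falling. The correlation was ranked over eligible transcripts only, so its counts and those of the tests cover different sets.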
